A study of Mus musculus with 8 samples.

Results

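The Fox genes encode the forkhead transcription factors, and 44 protein-coding mouse genes carried a symbol of Fox, 1 letter from a to s and a number. They were taken from 21631 protein-coding RefSeq genes of assembly GRCm38.p6, equivalent in coordinates to mm10, on the 20 chromosomes held by both deposited peak lists. H3K27ac, an acetylation of histone H3 found at active regulatory DNA, was profiled by chromatin immunoprecipitation and sequencing of C57BL/6 mouse CD8+ T cells, taken from spleen and lymph node. The cells were stimulated with antibodies against CD3 and CD28 and kept for 48 h with EnPGC-1, a compound that the labels place among PIPs, or with its vehicle DMSO. The series held 8 samples in 5 groups, namely 2 H3K27ac samples and 1 input for EnPGC-1, and 2 H3K27ac samples, 2 IgG samples and 1 input for DMSO. All groups shared strain, cell type and stimulation. Each treatment had 1 deposited list of H3K27ac intervals, so no value here has a replicate error, no difference was tested, and each one compares 2 lists. Values given under EnPGC-1 or under DMSO are those of that treatment's list. Read depth per sample was not used here, and depth, enrichment and control choice could each change how many intervals a list holds.

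Forkhead proteins bind DNA through the winged-helix domain that names them. FOXO factors are held out of the nucleus when AKT phosphorylates them and 14-3-3 proteins bind them, so growth factor and T cell receptor signals turn them down, while in resting T cells they drive homing and survival genes. FOXP factors repress transcription, among them FOXP3, the factor that defines regulatory T cells, and FOXP1, which helps to keep naive T cells quiescent. Most other members pattern embryonic tissues such as endoderm, vessels, neural crest, eye and ear, and are not known as regulators of CD8+ T cells.

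The EnPGC-1 list was the larger one throughout the genome. It held 253423 distinct intervals covering 165 Mb, against 81522 intervals covering 41.3 Mb under DMSO, 3.11 times as many intervals and 4.00 times as many bases. The median score of an interval, read as the −log10 of the peak caller's q-value, was 3.64 under EnPGC-1 and 2.16 under DMSO. These 2 medians are not on a shared scale. Of 8 CD8+ T cell genes, 7 had a gene-end interval under EnPGC-1 and 4 under DMSO. Cd8a, the CD8 alpha chain, had 1 under EnPGC-1 and 0 under DMSO, and Cd3d, a chain of the T cell receptor complex, had none within 1 kb in either list. Of 8 genes that mark B cells, myeloid cells, erythroid cells or liver, 5 had one under EnPGC-1 and 3 under DMSO, Csf1r, Cd79a and Lyz2 being in both, while Alb and Ms4a1 had 0 covered bases in both. Among all protein-coding genes, 72.8% had a gene-end interval under EnPGC-1 and 41.6% under DMSO. Whether other cells contributed to the lists was not tested.

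A gene counted as marked when an interval overlapped the 1 kb on either side of its start or its end. By this measure 43 of the 44 Fox genes (97.7%, exact binomial 95% interval 88.0 to 99.9%) were marked under EnPGC-1 and 29 (65.9%, 50.1 to 79.5%) under DMSO. Over all 21631 genes, 72.8% were marked under EnPGC-1 and 41.6% under DMSO. The binomial intervals treat genes as independent draws and cover counting error only. The 29 genes marked under DMSO were all marked under EnPGC-1 too, 14 were marked under EnPGC-1 alone, and 0 under DMSO alone. The background was 33.4% of all genes under EnPGC-1 alone and 2.19% under DMSO alone. These counts are per gene, and a gene in both lists need not be marked at the same place. At Foxn2 the DMSO interval and the EnPGC-1 interval within 1 kb lay at opposite ends of the gene. The 14 included Foxo3, Foxo4, Foxp1, Foxp4, Foxa3, Foxc1, Foxd1, Foxe3, Foxf2, Foxi2, Foxi3, Foxj3 and Foxl1. Foxr2 on chromosome X, known for activity in germ cells and tumors, was the 1 Fox gene marked in neither list.

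The bases covered by intervals within 5 kb of the gene ends were more under EnPGC-1 at 44 of 44 Fox genes, where the background was 81.4% of genes with more under EnPGC-1 and 3.97% with more under DMSO. The median Fox gene had 3968 covered bases under EnPGC-1 and 1242 under DMSO, and the median of all genes was 1891 under EnPGC-1 and 432 under DMSO. As a share of the window, the Fox medians were 27.5% under EnPGC-1 and 7.46% under DMSO, against 10.3% under EnPGC-1 and 2.45% under DMSO over all genes. The Fox medians thus lay above those of all genes in both lists. The ratio between the lists was no larger at Fox genes: summed covered bases were 3.37 times as many under EnPGC-1 at Fox genes and 3.56 times at all genes. Coverage was also taken over each gene together with the 250 kb on each side. Its median was 9.86% under EnPGC-1 and 2.36% under DMSO for Fox genes. This was close to the 8.63% under EnPGC-1 and 2.12% under DMSO for all genes.

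The excess of the EnPGC-1 list depended on how many intervals were kept. As an alternative, each list kept its 81522 highest-scoring intervals, with wider ones taken first among tied scores. For DMSO this was the whole list. At this setting 27 Fox genes were marked under EnPGC-1 and 29 under DMSO, 9 under EnPGC-1 alone and 11 under DMSO alone. The same restriction left 40.5% of all genes marked under EnPGC-1 and 41.6% under DMSO, with 15.4% under EnPGC-1 alone and 16.5% under DMSO alone. Median coverage of the Fox windows stayed higher under EnPGC-1, at 12.6% against 7.46% under DMSO. Over all genes the medians were 3.25% under EnPGC-1 and 2.45% under DMSO. Covered bases were then more under EnPGC-1 at 27 of 44 Fox genes, equal at 2 and more under DMSO at 15, among them Foxo1, Foxp2, Foxp3, Foxd2, Foxf2 and Foxn3. This split was not computed over all genes at this setting, so these counts of covered bases have no background.

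**Figure D1:**
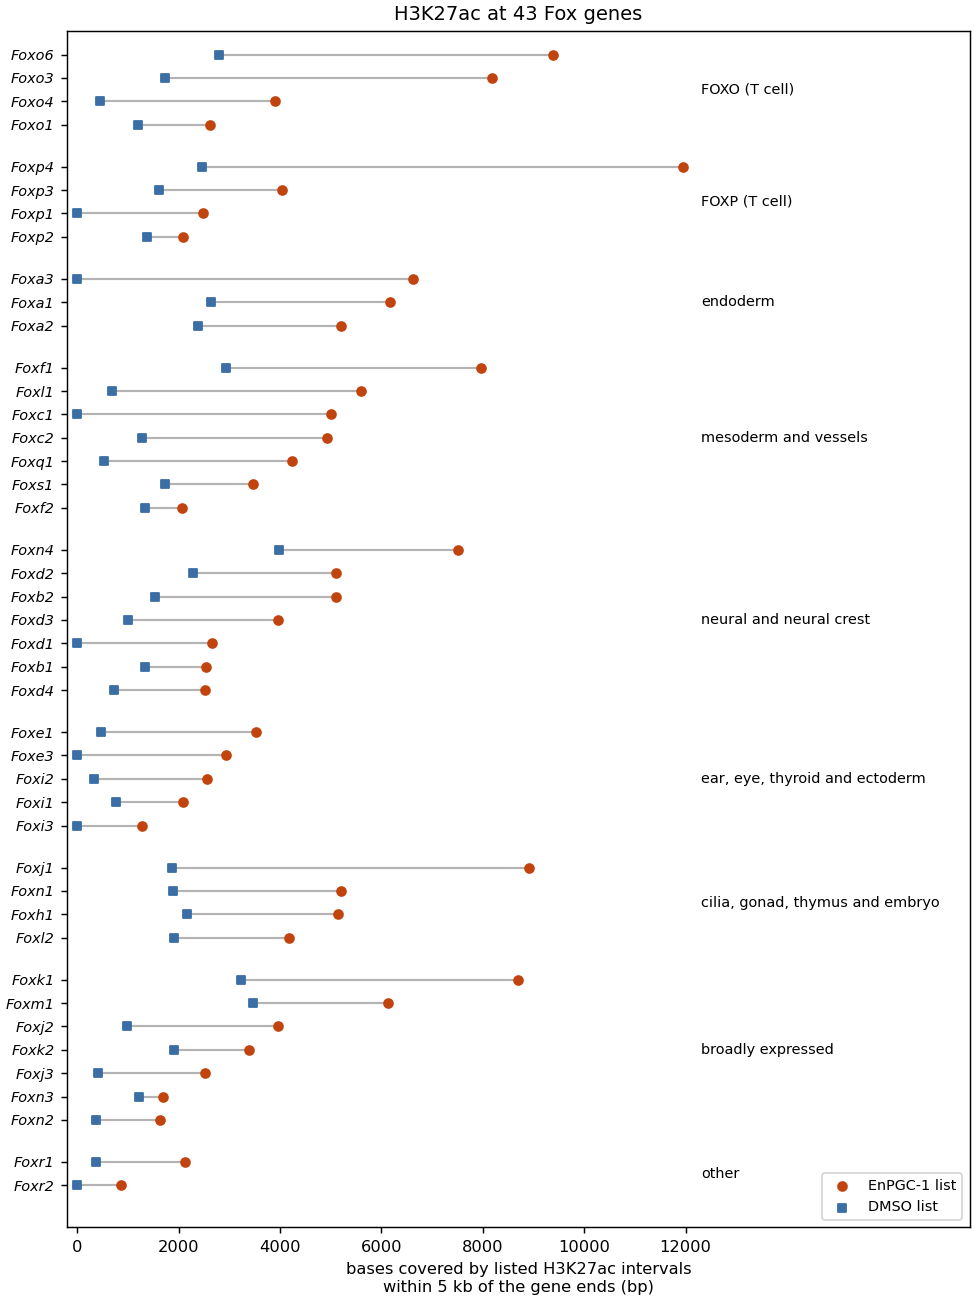
Bases covered by listed H3K27ac intervals within 5 kb of the gene ends (horizontal axis, bp) for 43 of the 44 Fox genes, grouped by role, with circles for the EnPGC-1 list and squares for the DMSO list and 1 list per treatment. Every circle lies to the right of its square, the widest gap is at Foxp4 (11946 bp under EnPGC-1, 2455 bp under DMSO), and 7 squares lie at 0.

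The 4 Foxo genes were all marked under EnPGC-1, and Foxo1 and Foxo6 were marked under DMSO as well. Foxo1 (chr3:52268337-52350109, plus strand), the main FOXO factor of T cells, had 3 intervals within 1 kb under EnPGC-1 and 1 under DMSO. Its covered bases within 5 kb were 2623 under EnPGC-1 and 1201 under DMSO. Its best-scoring DMSO interval, chr3:52269766-52270256, began 1429 bp inside the gene and scored 8.19, higher than 99.8% of the DMSO list and the highest DMSO score near any Fox gene. The best interval within 5 kb of Foxo1 under EnPGC-1 scored 5.87, higher than 87.6% of that list, and lay near the 3′ end. Raw scores of the 2 lists are not on a shared scale, because a q-value depends on each list's own depth and background.

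Foxo3 (chr10:42181845-42276695, minus strand), a factor known to limit T cell survival, had 4 intervals within 1 kb under EnPGC-1 and 0 under DMSO. It had 8177 covered bases under EnPGC-1 and 1733 under DMSO. The widest of its EnPGC-1 intervals, 2861 bp long at chr10:42273722-42276582, reached to within 113 bp of the 5′ end, and the DMSO interval at the same place, chr10:42273783-42274753, stopped 1942 bp short of it. Foxo3 is therefore a gene where both lists held signal near the promoter and only the EnPGC-1 interval came within 1 kb. Foxo4 (chrX:101254261-101260873) had 2 intervals within 1 kb under EnPGC-1 and 0 under DMSO, with 3902 covered bases under EnPGC-1 and 451 under DMSO. Foxo6 (chr4:120267078-120287261), known best from brain, had 3 intervals within 1 kb and 9392 covered bases under EnPGC-1, and 2 intervals and 2799 bases under DMSO. Each of its 6 DMSO intervals overlapped one of its 12 EnPGC-1 intervals.

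The annotated Foxo3 start is printed because the EnPGC-1 list covered 72 and the DMSO list 0 of its bases. Those 72 bases belonged to the interval chr10:42276874-42277610, which scored 1.77, higher than 7.75% of the EnPGC-1 list. The interval of 2861 bp did not reach this start. The sequence runs 5′ to 3′ from 250 bases before to 50 bases after the RefSeq start, and capitals mark its 35 CpG (RefSeq, GRCm38.p6).
Foxo3 start, chr10:42276646-42276945, minus strand: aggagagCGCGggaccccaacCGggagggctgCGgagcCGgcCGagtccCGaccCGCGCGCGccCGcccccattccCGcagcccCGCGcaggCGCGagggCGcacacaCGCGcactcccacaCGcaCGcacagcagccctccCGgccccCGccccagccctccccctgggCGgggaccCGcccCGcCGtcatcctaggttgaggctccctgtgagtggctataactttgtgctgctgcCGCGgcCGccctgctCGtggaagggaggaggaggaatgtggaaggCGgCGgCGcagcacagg

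All 4 Foxp genes were marked under EnPGC-1, and Foxp2 and Foxp3 were marked under DMSO too. Foxp4 (chr17:47867133-47924632, minus strand), a factor of lung and gut development that T cells also express, had 3 intervals within 1 kb under EnPGC-1 and 0 under DMSO. With 11946 covered bases under EnPGC-1 and 2455 under DMSO, its difference was the largest of the family and exceeded that of 99.6% of all genes. Its EnPGC-1 intervals included one of 4430 bp at chr17:47866112-47870541 entered 8 times in the list, taken as 8 summits, and one of 4413 bp at chr17:47919818-47924230 entered 4 times. The 5 DMSO intervals around the Foxp4 ends were 383 to 680 bp wide, and each overlapped an EnPGC-1 interval.

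Foxp1 (chr6:98925342-99522746, minus strand) had 2 intervals within 1 kb under EnPGC-1 and 0 under DMSO. Within 5 kb of its ends it had 2480 covered bases under EnPGC-1 and 0 under DMSO, one of the 7 Fox genes with no DMSO base in these windows. The best EnPGC-1 interval within 5 kb of the ends scored 3.18, higher than 37.3% of that list. Foxp2 (chr6:14901349-15441977), known from speech and language, had 2 intervals within 1 kb under EnPGC-1 and 1 under DMSO, with 2085 covered bases under EnPGC-1 and 1370 under DMSO. Its 2 DMSO intervals both overlapped EnPGC-1 intervals at the lower-coordinate end. Foxp3 (chrX:7579676-7595243, plus strand) had 3 intervals within 1 kb under EnPGC-1 and 1 under DMSO, with 4041 covered bases under EnPGC-1 and 1615 under DMSO. The DMSO interval within 1 kb of Foxp3 lay at its 3′ end (chrX:7595118-7596047), while the EnPGC-1 list also held one 471 bp before the 5′ end (chrX:7578757-7579204).

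The 3 annotated Foxp1 starts are printed because they differ in CpG number and in which list reached them. The one nearest the 5′ end of the gene had 13 CpG, with 285 of 300 bases covered under EnPGC-1 and 0 under DMSO. The next, inside the gene, had 5 CpG and was covered over 111 bases under EnPGC-1 and 56 under DMSO. The one farthest into the gene had 44 CpG, with 64 bases covered under EnPGC-1 and 0 under DMSO. Capitals mark CpG, and each runs 5′ to 3′ (RefSeq, GRCm38.p6).
Foxp1 start, chr6:99520944-99521243, minus strand: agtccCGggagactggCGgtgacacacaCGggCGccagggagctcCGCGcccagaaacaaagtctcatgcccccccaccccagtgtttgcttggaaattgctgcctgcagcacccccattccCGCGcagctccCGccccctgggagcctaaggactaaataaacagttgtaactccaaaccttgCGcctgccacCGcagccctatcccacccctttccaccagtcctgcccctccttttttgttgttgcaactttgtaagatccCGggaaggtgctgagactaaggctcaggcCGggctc
Foxp1 start, chr6:99266466-99266765, minus strand: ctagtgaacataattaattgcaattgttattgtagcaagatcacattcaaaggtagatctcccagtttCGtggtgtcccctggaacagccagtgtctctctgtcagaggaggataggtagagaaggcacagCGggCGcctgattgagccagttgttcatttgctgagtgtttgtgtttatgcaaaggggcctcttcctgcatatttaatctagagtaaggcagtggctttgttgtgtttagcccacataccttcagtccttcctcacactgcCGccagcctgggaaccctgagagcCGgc
Foxp1 start, chr6:99028249-99028548, minus strand: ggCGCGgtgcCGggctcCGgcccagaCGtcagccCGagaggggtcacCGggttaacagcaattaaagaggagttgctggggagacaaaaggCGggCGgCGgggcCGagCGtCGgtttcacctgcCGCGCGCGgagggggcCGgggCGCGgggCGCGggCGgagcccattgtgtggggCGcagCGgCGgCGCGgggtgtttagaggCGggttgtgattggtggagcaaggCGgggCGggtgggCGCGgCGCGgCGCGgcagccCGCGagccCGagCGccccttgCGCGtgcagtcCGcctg

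Intervals inside the long genes, more than 5 kb from their ends, were counted apart for the 10 Fox genes of at least 30 kb. The interior of Foxp1 held 91 EnPGC-1 intervals over 8.06% of its bases and 20 DMSO intervals over 1.48%, so the 0 DMSO bases at its ends did not extend to the rest of the gene. Its best EnPGC-1 interior interval, chr6:99078865-99079234, scored 7.68 and overlapped no DMSO interval. Its best DMSO interior interval, chr6:99485690-99486246, scored 5.77 and overlapped an EnPGC-1 interval. Foxn3, a transcriptional repressor expressed in many tissues, held 109 EnPGC-1 intervals over 20.2% and 36 DMSO intervals over 4.59% of its interior. Foxp2, about as long as Foxp1, held 8 EnPGC-1 intervals over 0.644% and 1 DMSO interval over 0.0629%. The long members thus ranged from nearly bare to densely covered in both lists.

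The interior of Foxk1 was covered over 59.2% under EnPGC-1 and 18.1% under DMSO, that of Foxp4 over 46.5% under EnPGC-1 and 14.1% under DMSO, and that of Foxo3 over 26.0% under EnPGC-1 and 6.35% under DMSO. As a ratio of covered shares, the lists were nearest to each other in Foxo1, with 6 intervals over 3.91% under EnPGC-1 and 5 over 3.04% under DMSO. Foxk2, Foxj3 and Foxn2 had 5, 4 and 2 interior intervals under EnPGC-1 and 0 each under DMSO. Exons and introns were not used here, so these intervals are placed only as inside the gene.

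**Figure D2:**
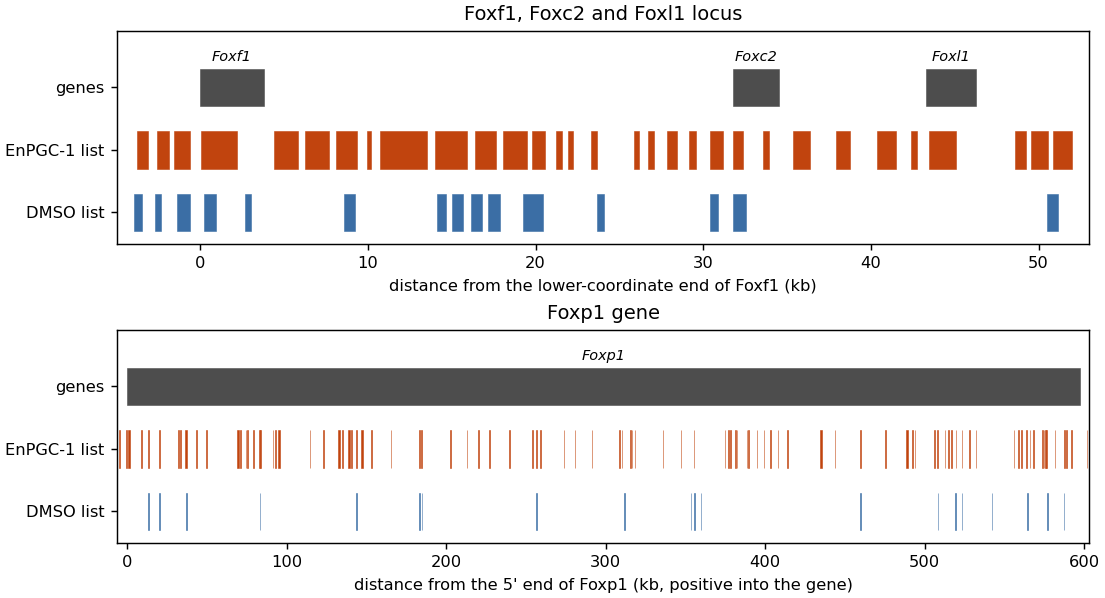
Genes, EnPGC-1 intervals and DMSO intervals along the Foxf1, Foxc2 and Foxl1 locus (top) and the Foxp1 gene (bottom), by distance in kb, with bars drawn to scale. The upper map holds 31 EnPGC-1 and 15 DMSO intervals, and the lower map has no DMSO interval within 5 kb of either end of Foxp1.

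The T cell members and the rest of the family were not clearly apart in how often they were marked. Of the 8 Foxo and Foxp genes, 8 (100%, 63.1 to 100%) were marked under EnPGC-1 and 4 (50%, 15.7 to 84.3%) under DMSO. Among the 36 Fox genes outside Foxo and Foxp, 35 (97.2%, 85.5 to 99.9%) were marked under EnPGC-1 and 25 (69.4%, 51.9 to 83.7%) under DMSO. The intervals overlap widely, and with 8 genes no difference between the classes could be read from them. Marked under EnPGC-1 alone were 4 of the 8 and 10 of the 36. Leaving out the 7 broadly expressed members, 28 of the remaining 29 were marked under EnPGC-1 and 19 under DMSO.

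Median covered bases did not separate the classes either. The medians were 3972 under EnPGC-1 and 1493 under DMSO for Foxo and Foxp, and 3968 under EnPGC-1 and 1109 under DMSO for the others. Windows differed in length, summing to 156613 bp for the 8 genes and 555865 bp for the 36. As a share of the window, the EnPGC-1 median was lower for Foxo and Foxp, 21.8% against 29.9%. The DMSO medians were 7.46% and 7.09%. Pooled over all windows of a class, the EnPGC-1 share was instead higher for Foxo and Foxp. Whether the classes differ in share was not tested. Summed over each class, the EnPGC-1 list had 3.84 times the DMSO bases at Foxo and Foxp genes and 3.25 times at the others. Foxp4 weighs on the first ratio, as it held 11946 of the 44646 EnPGC-1 bases of its class. Within the class, the median Foxo gene had 6040 EnPGC-1 and 1467 DMSO bases and the median Foxp gene 3261 EnPGC-1 and 1493 DMSO bases.

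**Figure D3:**
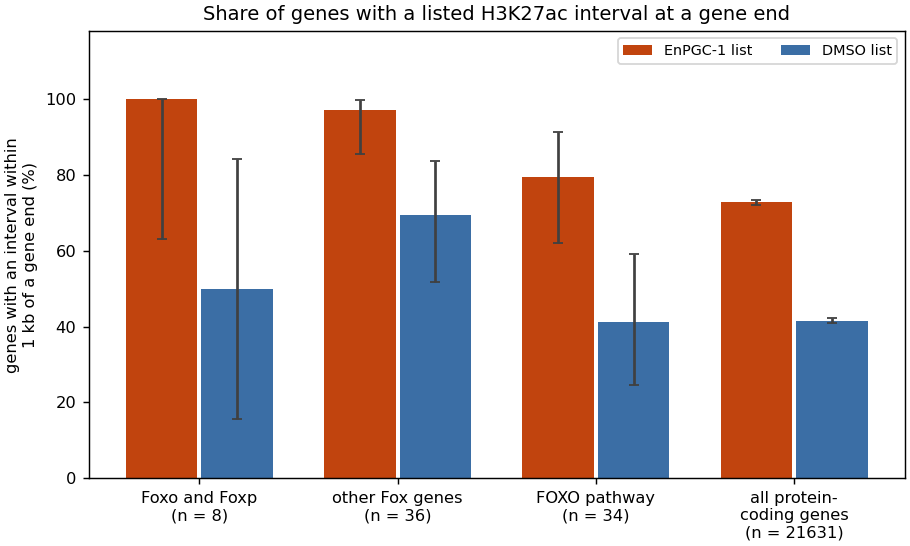
Share of genes with an interval within 1 kb of a gene end (vertical axis, %), with the EnPGC-1 list left of the DMSO list, for Foxo and Foxp genes, other Fox genes, the FOXO pathway list and all protein-coding genes. Error bars are exact binomial 95% intervals over genes, and both Fox classes stand at 97.2% or more under EnPGC-1 against 72.8% of all genes.

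The endoderm members Foxa1, Foxa2 and Foxa3, pioneer factors of liver and gut, had 6175, 5211 and 6618 covered bases under EnPGC-1 and 2634, 2380 and 0 under DMSO. Foxa1 (chr12:57540628-57548029, minus strand) had 2 intervals within 1 kb in each list. Foxa3 (chr7:19013283-19023539, minus strand) had 4 intervals within 1 kb and 11 within 5 kb under EnPGC-1 and none under DMSO, the largest such contrast among the 7 genes without a DMSO base. Sympk ends within 1 kb of Foxa3, so these intervals cannot be assigned to one of the genes. The Foxa1 and Foxa2 windows stood out from the wider region. Foxa2 had 37.0% of its windows covered under EnPGC-1 and 16.9% under DMSO. Over the gene with 250 kb on each side, a span that includes these windows, it had 2.91% under EnPGC-1 and 0.947% under DMSO. The Foxa3 start is printed, with its 22 CpG in capitals, as 188 of its bases were covered under EnPGC-1 and 0 under DMSO.
Foxa3 start, chr7:19023490-19023789, minus strand: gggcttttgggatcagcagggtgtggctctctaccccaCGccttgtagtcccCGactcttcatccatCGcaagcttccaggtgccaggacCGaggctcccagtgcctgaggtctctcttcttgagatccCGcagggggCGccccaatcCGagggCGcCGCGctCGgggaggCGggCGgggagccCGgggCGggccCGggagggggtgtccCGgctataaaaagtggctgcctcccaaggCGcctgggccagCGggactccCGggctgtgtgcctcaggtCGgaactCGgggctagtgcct

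Of the 7 members of mesoderm and vessels, 7 were marked under EnPGC-1 and 4 under DMSO. Foxf1, Foxc2 and Foxl1, which act in lung mesenchyme, lymphatic vessels and gut mesenchyme, lie together at chr8:121079386-121135644 with 5 kb added on each side. In these 56.3 kb the EnPGC-1 list held 31 intervals over 50.6% of the bases and the DMSO list 15 intervals over 16.9%. An EnPGC-1 interval overlapped 13 of those 15 DMSO intervals. This locus belongs to a wider acetylated stretch, as 44.6% of the bases within 250 kb of Foxf1 were covered under EnPGC-1 and 11.6% under DMSO.

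Within that locus, Foxf1 (chr8:121084386-121088154) had 3 intervals within 1 kb in each list, with 7972 covered bases under EnPGC-1 and 2926 under DMSO. Foxc2 (chr8:121116171-121118895) had 4 intervals and 4929 bases under EnPGC-1, and 2 intervals and 1270 bases under DMSO. Foxl1 (chr8:121127685-121130644) had 2 intervals under EnPGC-1 and 0 under DMSO, with 5588 bases under EnPGC-1 and 696 under DMSO. The best interval at Foxl1 scored 8.59 under EnPGC-1, the highest EnPGC-1 score near any Fox gene. The 3 neighbours spanned 4929 to 7972 covered bases under EnPGC-1 and 696 to 2926 under DMSO.

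Foxc1 (chr13:31806646-31810635), a factor of eye and vessel development, had 3 intervals within 1 kb under EnPGC-1 and 0 under DMSO, with 5014 covered bases under EnPGC-1 and 0 under DMSO. Foxq1 and Foxf2 share a locus of 83.2 kb (chr13:31553170-31636406) with 10 EnPGC-1 intervals over 12.8% and 5 DMSO intervals over 3.24%, all 5 overlapping EnPGC-1 intervals. Foxq1 (chr13:31558170-31560976), a factor of stomach lining and hair, had 2 intervals within 1 kb under EnPGC-1 and 1 under DMSO, with 4244 bases under EnPGC-1 and 521 under DMSO. Foxf2 (chr13:31625816-31631406), a factor of gut and brain pericytes, had 1 interval under EnPGC-1 and 0 under DMSO, with 2068 bases under EnPGC-1 and 1341 under DMSO. The Foxf2 difference of 727 bases was among the 3 lowest of the family. Foxs1, known from pericytes and sensory neurons, had 3475 bases under EnPGC-1 and 1725 under DMSO.

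All 8 neural and neural crest members were marked under EnPGC-1 and 6 of them under DMSO, where Foxd1 was not marked. Foxn4, which acts in retina and spinal cord, had 7502 covered bases under EnPGC-1 and 3985 under DMSO, the most of any Fox gene under DMSO. Foxd3, a neural crest factor, had 3969 bases under EnPGC-1 and 1004 under DMSO. Foxb2 (chr19:16872316-16873830, minus strand), a factor of the developing brain, had 3 intervals within 1 kb and 5097 bases under EnPGC-1, and 2 intervals and 1533 bases under DMSO. Its relative Foxb1 (chr9:69757710-69760940) had 1 interval within 1 kb, 2537 bp wide, and 2537 bases under EnPGC-1, and 2 intervals and 1347 bases under DMSO. Foxd1 and Foxd4 had 2522 to 2658 bases under EnPGC-1 and 0 to 732 under DMSO. Foxd2 (chr4:114906280-114908898) and the lens factor Foxe3 (chr4:114924443-114926067) share a locus of 29.8 kb (chr4:114901280-114931067) with 11 EnPGC-1 intervals over 26.95% and 4 DMSO intervals over 7.69%. Foxd2 had 4 intervals within 1 kb and 5100 bases under EnPGC-1, and 1 interval and 2291 bases under DMSO, while Foxe3 had 1 interval and 2929 bases under EnPGC-1 and 0 of both under DMSO.

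The Foxd3 start is printed as one that both lists reached, with 300 of its bases covered under EnPGC-1 and 170 under DMSO, and with its 25 CpG in capitals. The EnPGC-1 interval there was among the weakest of its list, with a score of 1.34, higher than 0.518% of that list. The DMSO interval there scored 2.16, higher than 39.4% of the DMSO list.
Foxd3 start, chr4:99656049-99656348, plus strand: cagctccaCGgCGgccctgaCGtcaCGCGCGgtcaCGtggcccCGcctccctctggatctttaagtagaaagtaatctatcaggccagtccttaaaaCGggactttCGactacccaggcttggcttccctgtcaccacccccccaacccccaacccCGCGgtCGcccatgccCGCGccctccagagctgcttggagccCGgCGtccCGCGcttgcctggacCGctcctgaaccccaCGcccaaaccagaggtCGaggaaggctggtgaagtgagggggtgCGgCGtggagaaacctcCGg

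The 5 members of ear, eye, thyroid and ectoderm were Foxe1 of the thyroid, Foxe3, and Foxi1, Foxi2 and Foxi3 of ear and ectoderm, and 5 were marked under EnPGC-1 and 2 under DMSO. Their median was 2551 covered bases under EnPGC-1 and 336 under DMSO, the lowest DMSO median of a role apart from that of Foxr1 and Foxr2, 187. Foxi3 had a single interval of 1278 bp under EnPGC-1, with a score of 7.05, and none under DMSO.

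The 4 members grouped for cilia, gonad, thymus and embryo were marked in both lists without exception. Foxj1 (chr11:116330704-116335499), which drives motile cilia and in mice also restrains T cell activation, had 3 intervals within 1 kb under EnPGC-1 and 2 under DMSO. Its 8914 covered bases under EnPGC-1 and 1871 under DMSO gave the largest difference, 7043 bases, outside Foxo and Foxp, with the neighbouring gene Rnf157 within 1 kb. Foxn1, the master factor of thymic epithelium, had 5208 bases under EnPGC-1 and 1884 under DMSO. Within 1 kb, Foxn1 had fewer intervals under EnPGC-1, 1, than under DMSO, 3. Foxl2 of the ovary had 4172 bases under EnPGC-1 and 1913 under DMSO, and Foxh1, a partner of SMAD proteins, 5146 under EnPGC-1 and 2166 under DMSO.

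Of the 7 broadly expressed members, 7 were marked under EnPGC-1 and 6 under DMSO, Foxj3 being the exception. Foxk1 (chr5:142401497-142462015), which represses autophagy genes and promotes glycolysis, had 3 intervals within 1 kb and 8686 covered bases under EnPGC-1, and 1 interval and 3240 bases under DMSO. Foxm1, which drives mitotic genes in dividing cells, had 6138 bases under EnPGC-1 and 3473 under DMSO. Rhno1 and Tex52 have an end within 1 kb of Foxm1. Foxk2, Foxj2, Foxj3 and Foxn2 had 1640 to 3967 bases under EnPGC-1 and 376 to 1905 under DMSO.

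Outside Foxo and Foxp, the smallest differences belonged to Foxn3, Foxf2 and Foxr2. Foxn3 (chr12:99190081-99563667, minus strand) had 2 intervals within 1 kb and 1697 covered bases under EnPGC-1, and 1 interval and 1213 bases under DMSO. Foxr2 (chrX:153114581-153132861) had 0 intervals within 1 kb in both lists with 871 bases within 5 kb under EnPGC-1 and 0 under DMSO. Foxr1 of the germ line had 2130 bases under EnPGC-1 and 374 under DMSO. In all, 12 of the 44 Fox genes had the end of another annotated gene within 1 kb, and intervals there cannot be assigned to one gene.

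RefSeq start sequences, which also give the strand, were found for 28 of the 44 Fox genes. At the 5′ gene end, 26 of the 28 (92.9%) had an interval within 1 kb under EnPGC-1 and 13 (46.4%) under DMSO, beside 64.6% under EnPGC-1 and 30.4% under DMSO of 17274 genes with a strand. At the 3′ end, 19 Fox genes (67.9%) had one under EnPGC-1 and 8 (28.6%) under DMSO, beside 45.1% under EnPGC-1 and 19.9% under DMSO of all. Coverage of Fox genes under EnPGC-1 was highest, at 50.7%, in the 500 bp that begin 1000 bp inside the gene, and was 39.9% in the first 500 bp. Over all genes it was highest in the first 500 bp, at 38.1%. In the DMSO list the Fox genes peaked at 19.9% in the 500 bp before the start and all genes at 12.5% in the first 500 bp inside. With 28 genes a single wide interval moves a bin by several percentage points.

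**Figure D4:**
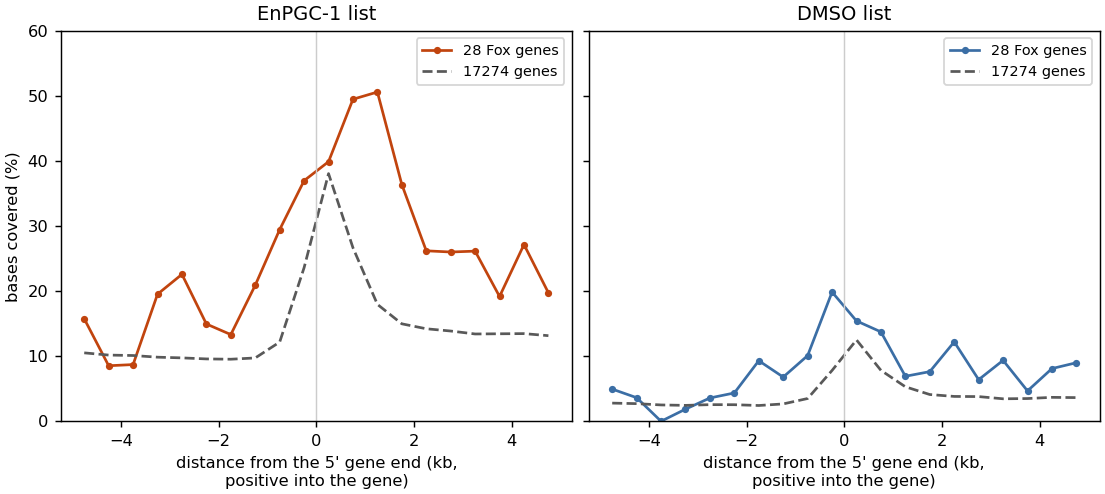
Bases covered (vertical axis, %) in bins of 500 bp by distance from the 5′ gene end (horizontal axis, kb, positive into the gene), for 28 Fox genes (solid) and 17274 genes (dashed), with the EnPGC-1 list left of the DMSO list. Fox genes reach 50.7% inside the gene under EnPGC-1 and 19.9% just before the start under DMSO.

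The Fox starts were rich in CpG. The 33 annotated starts of these 28 genes had a median of 22 CpG in 300 bases, against 13 over 21045 starts of all genes. Across all starts the share with an interval within 1 kb grew with CpG number, to 84.8% under EnPGC-1 and 44.5% under DMSO at 16 to 20 CpG, against 23.8% under EnPGC-1 and 8.95% under DMSO at 0 to 2 CpG. Over 30 CpG it was 81.6% under EnPGC-1 and 37.8% under DMSO. Among starts with more than 10 CpG, 23 of 23 Fox starts had an interval under EnPGC-1 and 12 under DMSO, beside 82.8% under EnPGC-1 and 42.0% under DMSO of all such starts. With this 1 limit of more than 10 CpG, the gap between Fox starts and all starts was narrower than without it. Without it, the shares were 93.9% against 66.7% under EnPGC-1 and 48.5% against 32.2% under DMSO. Single bands of CpG number held few Fox starts and did not all go the same way. Under DMSO, 5 of 8 Fox starts at 21 to 30 CpG had an interval, beside 44.2% of all starts. Over 30 CpG it was 3 of 9, beside 37.8%. At 6 to 10 CpG, 6 of 7 Fox starts had one under EnPGC-1, beside 73.5%, and 3 under DMSO, beside 33.65%. Whether CpG number accounts for the marking of Fox genes was not tested.

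**Figure D5:**
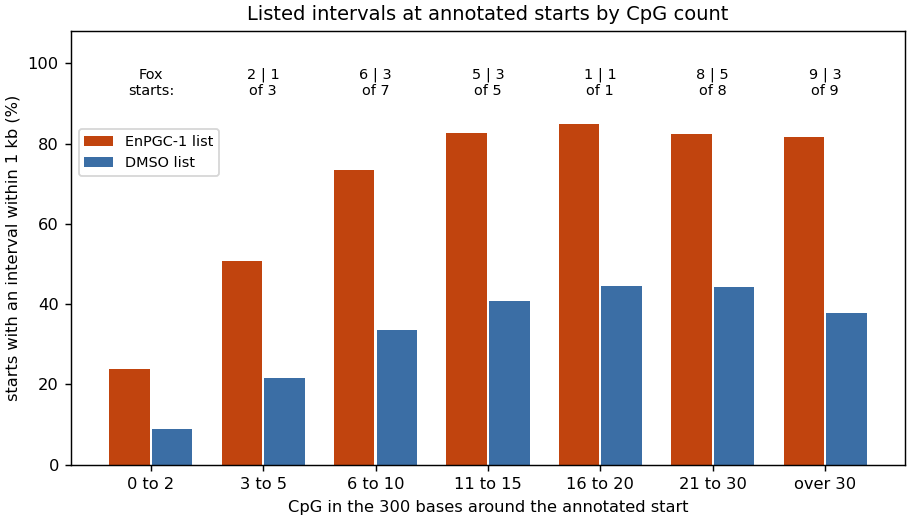
Share of 21045 annotated starts with an interval within 1 kb (vertical axis, %) by CpG number in the 300 bases around the start, with the EnPGC-1 list left of the DMSO list. The line of text above gives the Fox starts with an interval under EnPGC-1, then under DMSO, of those in each band, and 23 of the 33 Fox starts lie in the bands over 10 CpG.

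The forkhead core motif TGTTTAC, searched on both strands (GTAAACA on the other), was found in 1 of the 33 Fox starts and in 3.03% of all 21045 starts. The match lay 141 bases before the Foxa1 start, printed here with the motif in capitals (RefSeq, GRCm38.p6, minus strand). It describes letters in this window and says nothing of binding.
Foxa1 motif, chr12:57546234-57546264: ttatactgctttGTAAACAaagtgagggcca

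Intervals near Fox genes were wider than typical and more often shared between the lists. Within 5 kb of Fox gene ends, 252 EnPGC-1 intervals had a median width of 672 bp and 105 DMSO intervals one of 514 bp, against 580 bp under EnPGC-1 and 461 bp under DMSO near all genes. A DMSO interval overlapped 36.5% of these 252, and an EnPGC-1 interval overlapped 87.6% of these 105. Near all genes these shares were 29.4% of EnPGC-1 intervals and 78.4% of DMSO intervals. The median score near Fox genes stood at percentile 50.3 of the EnPGC-1 list and 53.9 of the DMSO list, against 50.3 under EnPGC-1 and 39.4 under DMSO near all genes.

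The genes around FOXO signaling were described by a list of 34, made of FOXO targets, PI3K and AKT enzymes and 14-3-3 proteins. Of these, 27 (79.4%) were marked under EnPGC-1 and 14 (41.2%) under DMSO, close to the 72.8% under EnPGC-1 and 41.6% under DMSO of all genes. In the EnPGC-1 list alone were 13, under DMSO alone 0, and in neither list 7. Among 16 FOXO targets, 14 were marked under EnPGC-1 and 8 under DMSO. Klf2, a homing regulator, had 4003 covered bases under EnPGC-1 and 2039 under DMSO, and Tcf7, the factor of memory-like T cells, had 4983 under EnPGC-1 and 305 under DMSO. The interleukin 7 receptor Il7r, a textbook FOXO1 target of T cells, was marked in neither list, with 1218 bases under EnPGC-1 and 0 under DMSO.

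Of 11 PI3K and AKT genes, 8 were marked under EnPGC-1 and 4 under DMSO. Akt1, the kinase that inactivates FOXO proteins, had 10823 covered bases under EnPGC-1 and 5142 under DMSO, and Pik3cd, the leukocyte PI3K subunit, 9514 under EnPGC-1 and 2882 under DMSO. Pik3ca was the 1 gene of the 34 with fewer bases under EnPGC-1, 297, than under DMSO, 389. Of 7 genes for 14-3-3 proteins, 5 were marked under EnPGC-1 and 2 under DMSO, and Ywhab and Ywhaz had 0 covered bases in both.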

How the data were processed

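ChIP with H3K27ac antibody or IgG, and input DNA, came from CD8+ T cells of mice kept with EnPGC-1 or DMSO. Per the submitters' processing notes, the build was mm10 and the tools included MACS2 2.2.2.20160309, Bowtie 1.1.2, ChIPseeker 11.16.1, Trimmomatic 0.38 and Picard 0.118. The sources used here give no peak calling parameters, control or pooling of replicates. The authors deposited 1 interval list per treatment, whose score was read as −log10 of a q-value. This unit was inferred, as the lowest score was 1.31 in both lists and the −log10 of 0.05 is 1.30. Scores were used to rank and filter the intervals of each list. In 1 alternative the same limit, a score of at least 2, was set on both lists, though their raw scores are not on a shared scale.

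Entries repeating an interval were combined, keeping the highest score (329623 to 253423 for EnPGC-1, 84538 to 81522 for DMSO). Overlap needed 1 bp. Covered bases were counted in the union of the 5 kb windows at both gene ends. The 269 genes on Y and the mitochondrial chromosome were left out. Shares carry exact Clopper-Pearson intervals. Python 3.11.15, pandas 2.3.3, numpy 2.4.6 and scipy 1.17.1 were used, and the counting was tested on simulated data. With 1 list per treatment no test was possible. The members and lists were chosen with earlier results of these data known. Named with full values were the Foxo and Foxp genes, members within 100 kb of another, and of the rest the 6 with the largest and 3 with the smallest difference in covered bases. Alternatives were equal interval numbers, score limits, other windows, overlap and merging rules, and the 5′ end alone. A planned comparison of forkhead protein sequences was not made. Some genes counted in the totals are not reported here by name.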

Additional observations from a re-analysis of the deposited data

How the results depend on the processing

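No paired analysis was possible because each treatment has 1 interval list, so replicate numbers are not in the files and no test was made. With equal numbers of highest-scoring intervals (EnPGC-1 scores of at least 4.21), 27 Fox genes were marked under EnPGC-1, with 9 under EnPGC-1 alone and 11 under DMSO alone, where all genes had 15.4% under EnPGC-1 alone and 16.5% under DMSO alone. The EnPGC-1 share was then 62.5% for Foxo and Foxp and 61.1% for the others, and the sum of EnPGC-1 intervals within 5 kb was 93. Median coverage was 12.6% under EnPGC-1 and 7.46% under DMSO, beside 3.25% under EnPGC-1 and 2.45% under DMSO over all genes. Under that setting the difference in percent covered, EnPGC-1 minus DMSO, was reversed at 15 genes: Foxd2 (-6.49), Foxd3 (-0.80), Foxf2 (-1.89), Foxh1 (-11.0), Foxi2 (-2.53), Foxj3 (-2.01), Foxk2 (-2.49), Foxm1 (-5.91), Foxn2 (-1.88), Foxn3 (-2.94), Foxn4 (-2.19), Foxo1 (-0.585), Foxp2 (-1.66), Foxp3 (-7.73) and Foxs1 (-1.64). The share of reversed genes over all genes was not computed at this or any other setting. With scores over each list's own median, 4 genes were marked under DMSO alone, against 6.98% of all genes, median coverage was 16.6% under EnPGC-1 and 4.44% under DMSO, and Foxm1 was reversed (-1.68). A score of at least 2 gave 1 gene under DMSO alone, against 2.43% of all genes, and a DMSO median of 4.62%. Windows of 500 bp gave 2 genes under DMSO alone and an overlap of 50% of the interval gave 3. The share over all genes was not computed at either setting, so these counts have no background. The 5′ end alone, for 28 genes, gave 26 marked under EnPGC-1 and 13 under DMSO. Over all genes with a strand the shares were 64.6% under EnPGC-1 and 30.4% under DMSO. This setting gave 20% of Foxo and Foxp and 52.2% of the other Fox genes under DMSO. Under EnPGC-1 it gave 100% of Foxo and Foxp and 91.3% of the others. Foxo4, Foxo6 and Foxp2 have no strand here and were left out of the Foxo and Foxp shares. Those shares rest on few genes, and no difference between the classes could be read from them. At the gene end with more covered bases the DMSO median was 10.6% and Foxn3 was reversed (-1.41), and with the whole gene and 10 kb on each side the DMSO median was 4.84%. A window of 2500 bp reversed Foxn2 (-0.53). Merging within 1000 bp left 149 EnPGC-1 intervals. The cause was not tested for any of these changes. Depth and enrichment per sample are unknown here and limit every comparison between the lists.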

Other observations

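A few antisense-named long noncoding genes beside Fox genes were also covered, as values outside the comparisons. Foxd2os had 3 intervals within 1 kb of its ends and 4955 covered bases within 5 kb under EnPGC-1, and 2 intervals and 1928 bases under DMSO. Foxl2os had 2 intervals and 3668 bases under EnPGC-1, and 1 interval and 1656 bases under DMSO. Foxo6os had 2 intervals in each list, with 6315 bases under EnPGC-1 and 2808 under DMSO. The body of Foxd2os was covered over 11.4% under EnPGC-1 and 11.4% under DMSO, and that of Foxl2os over 29.8% under EnPGC-1 and 26.9% under DMSO. Their windows overlap those of their Fox neighbours, so these are not independent values.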
